A study of Mus musculus with 8 samples.

Results

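Interferon regulatory factors are transcription factors that share a DNA-binding domain and act where interferon and microbial sensing meet gene expression. They bind the interferon-stimulated response element, or ISRE, alone or with partners. Irf1 activates and Irf2 often restrains an overlapping set of promoters, Irf3 and Irf7 drive interferon genes once phosphorylated by TBK1 or IKKε, and Irf5 acts downstream of Toll-like receptors and MyD88. Irf9 works with STAT2 in carrying the type I interferon signal to DNA, while Irf4 and Irf8 pair with PU.1 or BATF proteins and are best known in lymphocytes, monocytes and dendritic cells. Irf8 is also known to favour monocytes over neutrophils in the bone marrow.

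Here 8 genes of the family were followed, chosen by symbol among the 24625 rows of the array table, each of them on 1 row. These were Irf1 (NM_001159396), Irf2 (NM_008391), Irf3 (NM_016849), Irf4 (NM_013674), Irf5 (NM_001252382), Irf7 (NM_001252600), Irf8 (NM_008320) and Irf9 (NM_001159417). The samples were neutrophils from lung digests of wild type (WT) mice aged 6 to 12 weeks by the labels, of C57BL/6J stock by the study's methods. Control mice (PBS, n = 4) received phosphate-buffered saline through the trachea into the left lung and pneumonia mice (SP, n = 4) a suspension of Streptococcus pneumoniae, under anaesthesia and at the same volume for weight (2.3 µl per g), and lungs were taken 24 h later. The labels name no engineered allele and no further agent in either group. Cells were captured with beads against Ly6G, and the methods judged purity on stained cells of the pneumonia samples alone, where most of the few other cells looked like alveolar macrophages. The labels number the samples without naming mice, while the study's text speaks of samples as coming each from a mouse.

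Values are log2 normalized intensities from 1 array per sample, and precision is limited by having 4 arrays in a group. Levels of different genes cannot be set against each other on this scale, because probes differ in brightness, so each gene was compared only with itself between groups. Array medians lay between 6.06 and 6.20 in PBS and between 5.78 and 5.91 in SP. Y-linked genes, used as a measure of background, lay between 4.33 and 4.90 over all arrays. This use assumes female mice. The study's methods describe colonies from purchased females and mice matched for sex, without naming the sex studied. Neutrophil markers were bright in both groups, with a mean of 11 markers between 12.33 and 12.80 in PBS and between 12.30 and 12.85 in SP. Of these 11, 1 was called higher and 3 lower, none of them by 2-fold. Markers of other lung cells were bright as well. The mean of 8 epithelial markers lay between 11.79 and 12.25 in PBS and between 10.10 and 11.09 in SP, and all 8 were called lower. Of 8 endothelial markers 6 were called lower and none higher, with a mean between 10.08 and 11.07 in PBS and between 8.70 and 9.83 in SP. The part of these cells in the results that follow was not tested. PBS replicate 2 and SP replicate 3 stood apart from the rest of their groups on many genes. Fewer cells of a type and less RNA per cell cannot be told apart in such bulk samples.

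The promoters of the family were searched first, because the ISRE and the gamma-activated site (GAS) are the letters through which interferon signals are known to reach DNA. RefSeq (GRCm38.p6) gave 11 promoter windows for the 8 genes, each from 250 bases before to 50 bases after a transcription start. The GAS was searched as TTCNNNGAA, the ISRE core as GAAANNGAAA and the κB site of NF-κB by its usual consensus, on both strands. GAS letters occurred in 8.30% of 32851 windows of this length over all genes, the ISRE core in 3.44% and the κB site in 8.46%. Of the 11 windows of the factors, 3 held a GAS, 1 an ISRE core and 2 a κB site, each count being of different genes. Counted by gene, 2582 of 27025 genes held a GAS in some window, 1079 an ISRE core and 2581 a κB site. They are printed because they are the letters by which members of the family differ in these windows, with the match in capitals and its neighbours in lower case, 5′ to 3′ on the gene's strand.
Irf1 GAS, chr11:53769914-53769942 (+), match from 90 to 82 bases before the start: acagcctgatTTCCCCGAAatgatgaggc
Irf1 κB site, chr11:53769991-53770013 (+), match from 13 to 4 bases before the start: agtccgggccGGGGAATCCCgct
Irf2 ISRE core, chr8:46739495-46739523 (+), match from 241 to 232 bases before the start: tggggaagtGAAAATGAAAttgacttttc
Irf2 GAS, chr8:46739511-46739539 (+), match from 224 to 216 bases before the start: aaattgacttTTCCGAGAAatgatgaaag
Irf2 κB site, chr8:46739718-46739744 (+), match from 17 to 8 bases before the start: cgggggtgggGGGGATTTCCagcctcg
Irf8 GAS, chr8:120736177-120736205 (+), match from 171 to 163 bases before the start: caaaagtgatTTCTCGGAAagagagcgct
Irf8 GAS, chr8:120736195-120736223 (+), match from 153 to 145 bases before the start: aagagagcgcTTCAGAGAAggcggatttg
Irf2 was the one member with all 3 kinds of letters, and its ISRE core and GAS lie next to each other. The windows of Irf3, Irf4, Irf5, Irf7 and Irf9 held none of them, which says only that these letters are not in these windows. A match is not shown to be a site in use.

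Pneumonia was accompanied by higher levels of most of the family. Irf1, Irf2, Irf5, Irf7, Irf8 and Irf9 were higher in SP, Irf4 was lower, and Irf3 did not pass the test. By limma with Benjamini-Hochberg adjustment over all rows, 7 of 8 were called at an adjusted p of 0.05, against 44.1% of all rows. Of these, 6 were called higher, where 21.5% of all rows were, and 5 of 8 at least 2-fold higher, where 6.37% of all rows were. Irf4 was the 1 member called lower, also at 2-fold, against 22.6% of all rows called lower and 11.3% at 2-fold. The median difference was 1.29 log2 units over the 8 genes and 0.10 over all rows. The median of an SP array was on average 0.28 below that of a PBS array. Centring the arrays on their medians kept every called direction but took Irf4 under 2-fold (-0.92) and Irf2 over it (1.05).

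**Figure D1:**
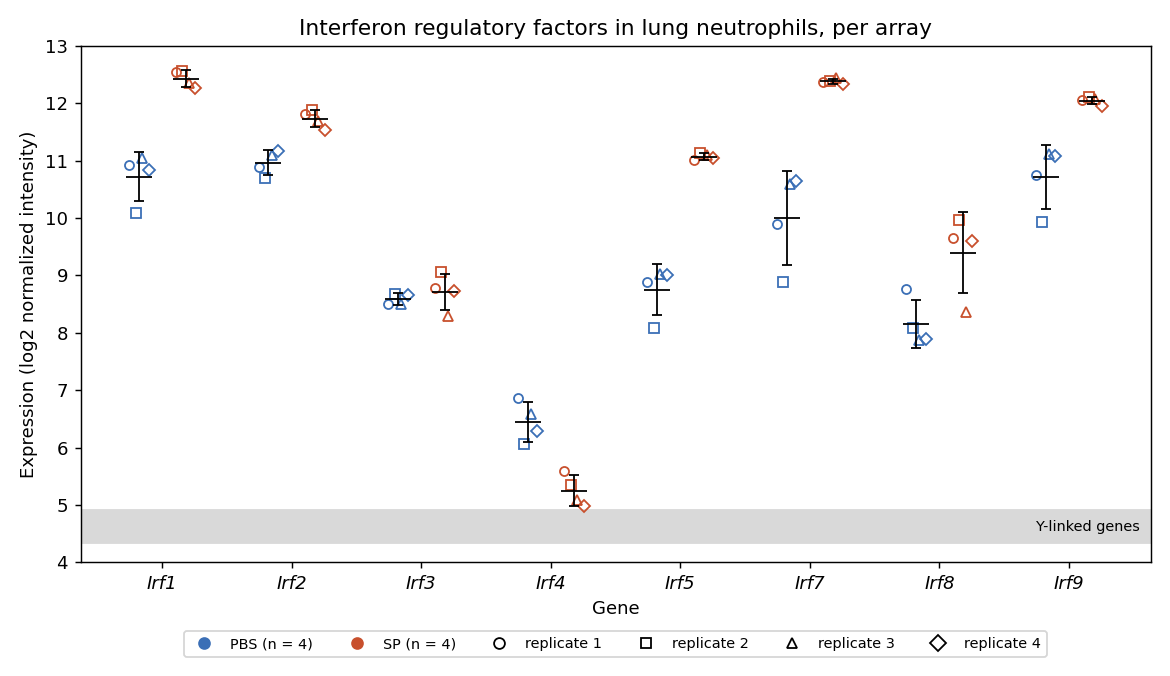
Expression of the 8 factors on each array (y axis, log2 normalized intensity), PBS in blue and SP in orange, with bars for the mean and SD of 4 arrays and a grey band for the range of Y-linked genes. Irf1, Irf2, Irf5, Irf7 and Irf9 separate upward in SP, Irf4 separates downward towards the band, and Irf3 and Irf8 overlap between groups.

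Irf7 and Irf5 rose most. Irf7, the factor that amplifies type I interferon production, read 9.89, 8.88, 10.59 and 10.65 in PBS replicates 1 to 4, and 12.36, 12.40, 12.44 and 12.34 in SP replicates 1 to 4. All SP arrays lay within 0.11 of each other and above every PBS array, while the PBS arrays spread over 1.77 log2 units. The rise was 5.21-fold (2.38 ± 0.36 log2 units, SE, adjusted p = 0.00101 by limma). Irf5, which drives inflammatory cytokine genes, read 8.88, 8.09, 9.03 and 9.01 in PBS, and 11.01, 11.13, 11.10 and 11.04 in SP. It was 4.98-fold higher (2.32 ± 0.20 log2 units, SE, adjusted p = 6.14e-05 by limma), again with tight SP values and no overlap. PBS replicate 2 was the lowest array for both genes. Without it the differences were 2.01 for Irf7 and 2.10 for Irf5, and both remained called.

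Irf1, an early interferon gamma response factor and an activator of antigen presentation genes, and its relative Irf2 both rose, by unlike amounts. Irf1 read 10.92, 10.10, 11.04 and 10.84 in PBS and 12.55, 12.57, 12.35 and 12.26 in SP, a 3.27-fold rise (1.71 ± 0.20 log2 units, SE, adjusted p = 0.000291 by limma). Irf2 read 10.89, 10.69, 11.10 and 11.17 in PBS and 11.81, 11.89, 11.70 and 11.54 in SP. Its rise was 1.71-fold (0.77 ± 0.13 log2 units, SE, adjusted p = 0.00169 by limma), under the 2-fold line, although the groups did not overlap. The groups did not overlap in 6 of 8 members and in 49.0% of all rows. In 5 of the 8 SP lay wholly above PBS, which held for 27.2% of all rows. These are Irf1, Irf2, Irf5, Irf7 and Irf9. Without PBS replicate 2, the lowest PBS array for both, the rise of Irf1 was 2.83-fold and the difference of Irf2 was 0.68 log2 units. Both Irf1 and Irf2 carry a GAS and a κB site in the windows shown above. Irf5, Irf7 and Irf9, which also rose, held none of the letters searched. A part of these letters in the rises was not tested.

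Irf9, which gives its complex with STAT2 its hold on the ISRE, read 10.74, 9.92, 11.12 and 11.07 in PBS and 12.05, 12.11, 12.07 and 11.96 in SP. It was 2.52-fold higher (1.33 ± 0.24 log2 units, SE, adjusted p = 0.00291 by limma), and the difference was 1.07 without PBS replicate 2. Its partner Stat2 was higher as well. Stat2 averaged 8.98 ± 0.37 and 11.77 ± 0.10 (SD, n = 4), a 6.93-fold rise with a limma adjusted p of 1.35e-05. Irf9 and Stat2 both lay higher in every SP array than in any PBS array.

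Irf3 was the member that did not pass the test. This factor is known to be present in resting cells and to be switched on by phosphorylation, which an mRNA array does not read. It read 8.50, 8.68, 8.51 and 8.67 in PBS and 8.78, 9.05, 8.30 and 8.73 in SP, so that the SP arrays lay on both sides of the PBS arrays. The difference was 0.13 log2 units with a 95% interval from -0.22 to 0.47 (adjusted p = 0.489 by limma), which includes neither a 2-fold rise nor a 2-fold fall. It passed the threshold with arrays centred on their medians (0.41, adjusted p = 0.0278) and after another quantile normalization (0.29, adjusted p = 0.0476). It is therefore a difference whose call depends on the scaling. The genes of the kinases that phosphorylate Irf3 did differ. Ikbke was higher by 4.95 and Tbk1 by 2.54 log2 units, both adjusted p values under that of any member (7.25e-08 and 4.35e-06 by limma).

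**Figure D2:**
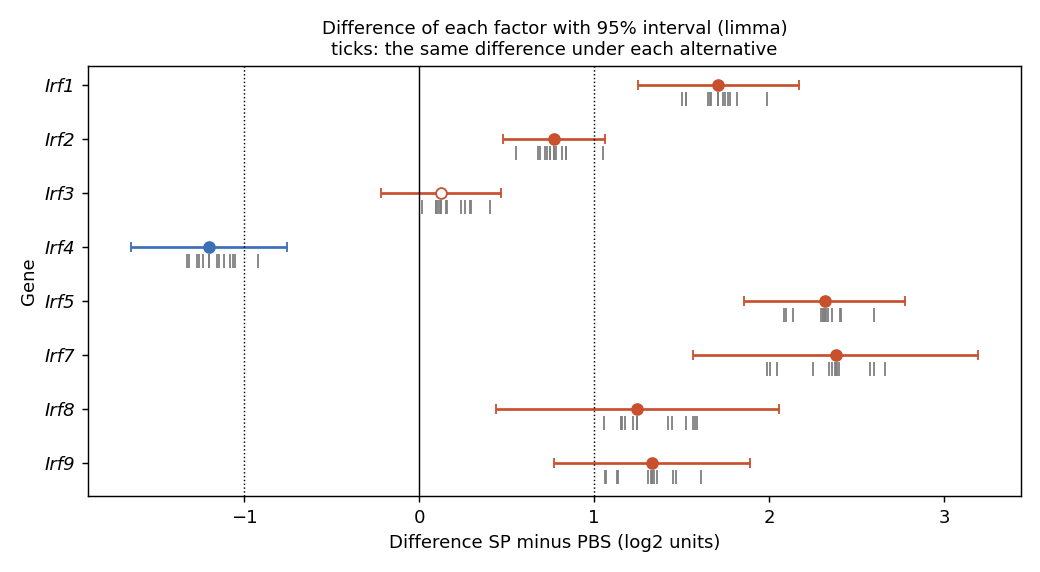
Difference between SP and PBS for each factor (x axis, log2 units) with its 95% interval by limma, filled where the adjusted p was at most 0.05, and grey ticks for the same difference under each alternative processing. Dotted lines mark 2-fold. Irf5 and Irf7 lie farthest right, Irf4 is the sole fall, and the interval of Irf3 spans 0.

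Irf8 was higher, but less firmly than the others. It read 8.76, 8.08, 7.88 and 7.89 in PBS and 9.65, 9.97, 8.37 and 9.61 in SP. SP replicate 3 lay below PBS replicate 1, so the groups overlapped, while the other SP arrays were above every PBS array. The rise was 2.37-fold (1.25 ± 0.35 log2 units, SE, adjusted p = 0.0218 by limma). Irf8 lost its call when the methods' t-test replaced limma, as the adjusted p rose above 0.05 (0.0533). It also did so in limma when any of 4 arrays was left out, namely PBS replicate 3 (difference 1.16, adjusted p = 0.0530), PBS replicate 4 (1.16, 0.0574), SP replicate 1 (1.16, 0.0592) or SP replicate 2 (1.06, 0.0542). Without SP replicate 3 the difference was 1.59 (adjusted p = 0.00125).

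Because Irf8 is a known gene of monocytes, macrophages and dendritic cells, their markers were set beside it. Of 12 monocyte and macrophage markers, 6 were called higher and none lower, 5 of them at least 2-fold higher, and 6 were not called. The count at 2-fold was 3 when PBS replicate 2, SP replicate 1, SP replicate 2 or SP replicate 4 was left out. Over all rows, 21.5% were called higher and 6.37% at least 2-fold higher. The largest rise was that of the Fc receptor gene Fcgr1 (5.03 log2 units). The study also found its protein higher on lung neutrophils in pneumonia by flow cytometry. Their mean lay between 8.31 and 9.08 in PBS and between 8.87 and 10.03 in SP. None of the 12 was at the level of Y-linked genes on all arrays, and the brightest, Cd68 (a lysosomal protein of phagocytes), averaged 11.59 ± 0.52 in PBS and 12.91 ± 0.15 in SP (SD, n = 4). The next, the growth factor receptor gene Csf1r, differed by 0.73 and was not called (adjusted p = 0.0547 by limma). SP replicate 3, the lowest SP array for Irf8, was also the lowest SP array for all 12 markers, with a mean of 8.87 against 9.74 to 10.03 on the other SP arrays. Over all rows it was the lowest SP array in 33.9%. This was not particular to these markers. SP replicate 3 also had the lowest SP mean of the epithelial (10.10), endothelial (8.70), B cell, alveolar macrophage and both dendritic cell lists. Its mean was not the lowest for the T cell, NK cell and plasma cell lists, and it was the highest for neutrophil markers (12.85). The other arrays did not follow one order. PBS replicate 1 was highest in PBS for both Irf8 and the marker mean (9.08), but it was also highest for the B cell, T cell, NK cell, alveolar macrophage and both dendritic cell lists. PBS replicate 2 had the lowest marker mean (8.31) with the second-highest Irf8, and SP replicate 4 had the highest marker mean (10.03) with an Irf8 below those of SP replicates 1 and 2. The part of such cells in the Irf8 result was not tested. Conventional dendritic cell markers, by contrast, had 1 of 9 called higher and 3 lower, with a mean between 6.75 and 7.28 in PBS and between 6.02 and 6.51 in SP.

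Irf4, a factor of B cells, plasma cells and activated lymphocytes, was the one member that fell. It read 6.85, 6.07, 6.59 and 6.28 in PBS and 5.58, 5.34, 5.08 and 4.98 in SP, every SP array below every PBS array and close above the Y-linked genes. Groups lay apart downward in 21.8% of all rows. The fall was 2.30-fold (-1.20 ± 0.20 log2 units, SE, adjusted p = 0.00156 by limma), and near background such a fold is not exact. B cell markers moved with it. Of 10, 9 were called lower, 8 of them at least 2-fold, and none was called higher, although 1 was called at least 2-fold higher without SP replicate 3, with centred arrays or after another quantile normalization. Their mean lay between 7.31 and 8.15 in PBS and between 5.82 and 6.67 in SP. The brightest were Cd79b and Cd79a of the B cell receptor, which fell by 1.63 and 1.76 log2 units. The marker that was not called, Fcer2a, had a difference of 0.82 (adjusted p = 0.0719 by limma). Within groups the order of arrays was not the same for Irf4 and the B cell mean. PBS replicate 1 was highest for both (8.15 for the markers), but PBS replicate 2 had the lowest Irf4 and the second-highest marker mean (7.62), and PBS replicate 3 the second-highest Irf4 and the lowest marker mean (7.31). In SP, Irf4 was highest in replicate 1 and lowest in replicate 4, and the marker mean was highest in replicate 2 and lowest in replicate 3. Plasma cell markers went both ways, with 1 of 7 called higher and 3 lower, and of 9 plasmacytoid dendritic cell markers 1 was called higher and 4 lower. T cell markers, dim in both groups, had 2 of 9 called higher and none lower, with a mean between 5.42 and 5.95 in PBS and between 5.54 and 6.56 in SP. Of 8 NK cell markers 1 was called higher and none lower. Over all rows, 21.5% were called higher and 22.6% lower, so the T cell count is near that share. A fall was not particular to B cell markers. Called lower were also 8 of 8 epithelial, 6 of 8 endothelial and 5 of 8 alveolar macrophage markers, with 1 of the last called higher. The part of B cells or of these other cells in the fall of Irf4 was not tested.

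**Figure D3:**
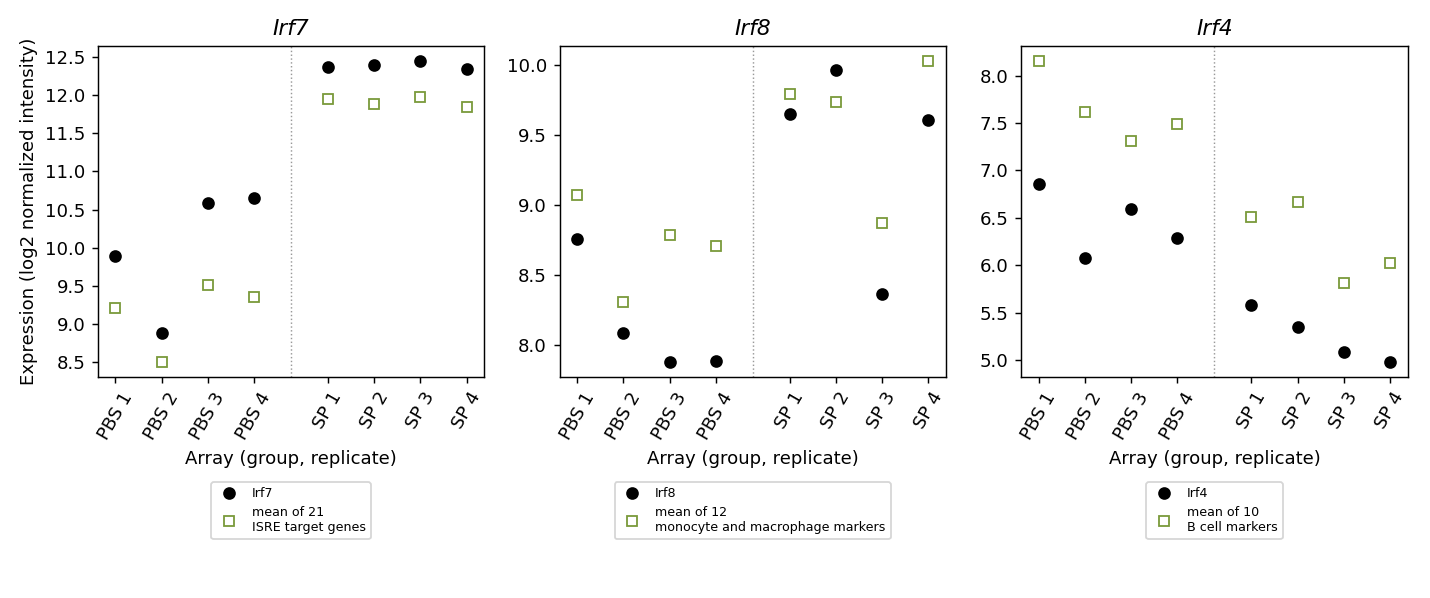
Level on each array (y axis, log2 normalized intensity) of Irf7 beside the mean of 21 ISRE target genes, of Irf8 beside the mean of 12 monocyte and macrophage markers, and of Irf4 beside the mean of 10 B cell markers. PBS replicate 2 is the lowest PBS array in the first panel, SP replicate 3 is the lowest SP array in the second, and both series are lower in SP in the third.

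Relatives within the family were then set against each other inside each array, a comparison that adding a constant to an array does not move. Only the change of the ratio between groups is read, not its level. Of 5 pairs compared, 4 differed in response. The Irf1 to Irf2 ratio was higher in SP by 0.94 log2 units, with group means of -0.24 ± 0.28 and 0.70 ± 0.04 for PBS and SP (SD, n = 4, two-sided exact permutation p = 0.0286, 0.0357 adjusted over 5 pairs). The SP arrays were near identical in this ratio, between 0.65 and 0.74. The Irf3 to Irf7 ratio fell by 2.26, from -1.42 ± 0.87 to -3.67 ± 0.34, the Irf4 to Irf8 ratio fell by 2.45 and the Irf4 to Irf9 ratio fell by 2.53. Irf4 lay near background in SP, so the sizes of its ratio changes are not exact. Without PBS replicate 2 the Irf3 to Irf7 change was -1.85. Each of these 3 ratios had the same exact permutation p of 0.0286, the smallest that 70 arrangements allow, and groups that did not overlap. For all 4 pairs that differed, Irf1 to Irf2 included, this outcome was fixed by the ranges of the single genes within each group. Any matching of arrays within a group would have kept the ratios apart. For Irf4 to Irf9, Irf4 lay wholly lower and Irf9 wholly higher in SP. The permutation test of these pairs therefore adds nothing to the single genes. All pairs reuse the values of the members given above, so they are no further support for those differences. Irf8 and Irf9 were not shown to differ in response (-0.09, exact permutation p = 0.943), and the 95% interval by limma was wide, from -1.10 to 0.93.

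**Figure D4:**
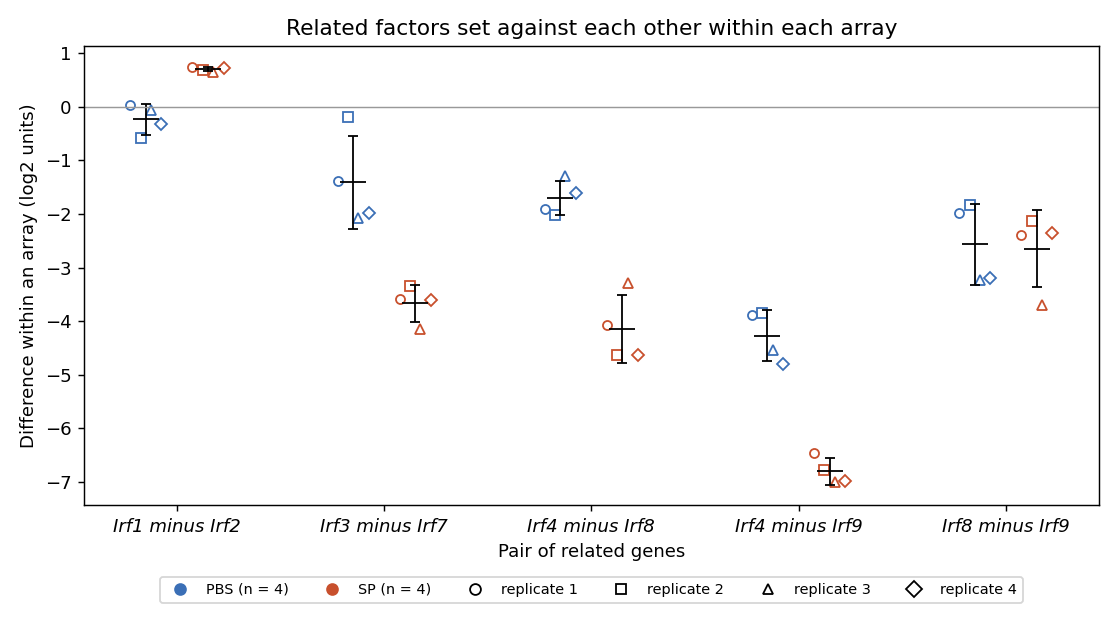
Difference between related genes within each array (y axis, log2 units) for 5 pairs, PBS in blue and SP in orange, with bars for the mean and SD of 4 arrays. The groups do not overlap for the first 4 pairs, and they do for Irf8 minus Irf9.

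The spread within groups was uneven across arrays. PBS replicate 2 was the lowest PBS array for 6 of the 8 factors, against 36.3% of all rows. The exceptions were Irf3 and Irf8. In Irf7 it lay 1.12 below the PBS mean, in Irf9 0.79, in Irf5 0.66 and in Irf1 0.63. The array was low for many other genes as well. PBS replicate 2 was the lowest PBS array for 18 of 21 ISRE target genes, with a mean of 8.51 against 9.21 to 9.51 on the other PBS arrays. It was also the lowest PBS array for 8 of 11 neutrophil markers, 7 of 9 neutrophil precursor markers, 9 of 12 monocyte and macrophage markers and 7 of 8 NK cell markers, and it had the highest PBS mean of the epithelial (12.25) and endothelial (11.07) markers. In SP the same 21 ISRE target genes were even, with means between 11.84 and 11.98. The SD was larger in PBS than in SP for 6 of 8 factors and 18 of 21 ISRE target genes, against 34.3% of all rows. With PBS replicate 2 and SP replicate 3 both left out, an alternative added after seeing the data, the same 7 factors were called.

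**Figure D5:**
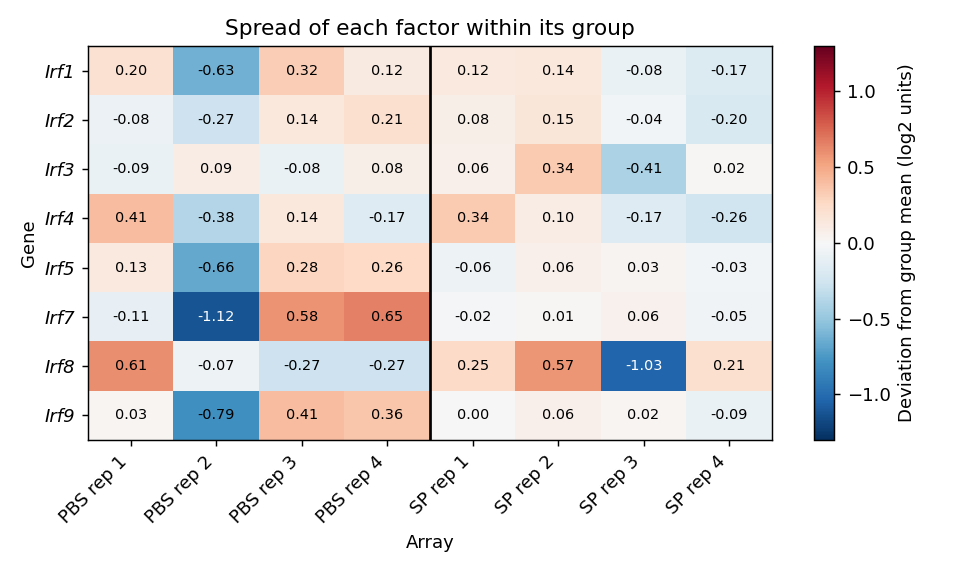
Deviation of each factor from its group mean on each array (log2 units, printed in each cell). The column of PBS replicate 2 is negative except in Irf3, and the largest negative value in SP is that of Irf8 in replicate 3.

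Genes that act with the factors were described from lists of textbook members. Their counts stand beside 21.5% of all rows called higher and 22.6% lower, or 6.37% and 11.3% at 2-fold. Of 17 genes that signal to the factors, 10 were called higher and 2 lower, 8 and 1 of them at least 2-fold, with a median difference of 0.72. Of 22 partners and cofactors, 11 were called higher and 2 lower. Batf2 and Batf, whose proteins bind DNA with Irf4 and Irf8, had the largest differences of the list, while their relative Batf3 differed by 0.61. Batf2 averaged 5.37 ± 0.55 in PBS and 9.68 ± 0.66 in SP (SD, n = 4), 19.7-fold higher at a limma adjusted p of 5.99e-05. It lay near the Y-linked genes in PBS, so its fold is not exact. Batf averaged 6.76 ± 0.62 and 10.78 ± 0.27 (SD, n = 4), 16.2-fold higher at a limma adjusted p of 2.73e-05. Spi1, which encodes PU.1, the other partner of Irf4 and Irf8, was bright and not called (12.35 ± 0.44 and 12.60 ± 0.14, SD, n = 4, adjusted p = 0.318 by limma). Irf2bp2, a corepressor that binds Irf2, averaged 9.54 ± 0.03 and 11.13 ± 0.14 (SD, n = 4), a 3.02-fold rise at a limma adjusted p of 7.24e-06. Of 10 interferons, receptors and their kinases, 7 were called higher and 1 lower, with Jak2 (3.34-fold) and Il10rb (2.59-fold) the largest rises. Ifnb1, the type I interferon gene of this list, was not called (adjusted p = 0.122 by limma). It averaged 4.36 ± 0.10 in PBS, at the level of Y-linked genes, and 5.34 ± 1.11 in SP (SD, n = 4). The study likewise reported type I interferon genes as low and not raised 2-fold.

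Targets of the factors were higher almost throughout. All 21 ISRE target genes measured were called at least 2-fold higher, by a median of 2.75 log2 units, with Ifit2 and Mx2 the largest (5.61 and 4.64). Mx2 lay close above the Y-linked genes in PBS (4.94 ± 0.19, SD, n = 4), so its difference is not exact. Of 26 genes known to answer to Irf1 and Irf8, 24 were called higher and none lower, 22 of them at least 2-fold, by a median of 2.38. The chemokines Cxcl9 and Cxcl10 were the largest of them (5.73 and 4.75). Cxcl9 was dim and uneven in PBS (5.76 ± 1.24, SD, n = 4), so its difference is not exact. Ciita, the master regulator of class II antigen presentation, was not called (6.62 ± 0.61 and 6.89 ± 0.77, SD, n = 4, adjusted p = 0.596 by limma), nor was the cytokine gene Il15 (adjusted p = 0.705). Of 11 genes linked to Irf4 and Irf5, 8 were called higher and 2 lower. Arg1 (24.7-fold) and the chemokine Ccl4 (23.5-fold) were the largest rises, and Arg1 lay at the level of Y-linked genes in PBS, so its fold is not exact. The macrophage genes Mrc1 and Retnla fell 6.50-fold and 3.57-fold. Alveolar macrophage markers were also lower in 5 of 8 and higher in 1 of 8, and their mean lay between 8.01 and 8.48 in SP, below every PBS array (the highest at 9.68). Their part was not tested.

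For each factor, the genes of nearest profile were sought among the other 19835 symbols, by the root mean square distance over the 8 arrays of values taken relative to the PBS mean. Nearest to Irf1 were Fhl3, Ddx58 (the RNA sensor RIG-I) and Trafd1, at 0.10, 0.13 and 0.13 log2 units. Nearest to Irf7 were Gadd45b, Oas1g and Ptafr (0.12, 0.12 and 0.15), and to Irf5 Ogfr, Slc31a2 and H2-T22 (0.08, 0.15 and 0.17). Irf9 was nearest to Nfkbia, the NF-κB inhibitor, Pramel12 and Neu1 (0.07, 0.09 and 0.10), and Irf2 to Timm8b, Zfp830 and Impact (0.05, 0.05 and 0.07). Irf3 lay nearest to Depdc5, Caap1 and Erlin2 (0.07 each). The distances of Irf4 to Phgdh, Tmem54 and Ildr2 (0.16, 0.18 and 0.18) and of Irf8 to Nt5dc2, Itgb7 and Apol9a (0.19, 0.21 and 0.22) were longer.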

How the data were processed

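RNA of 8 samples (4 PBS, 4 SP, grouped by title) was measured on Affymetrix Mouse Gene 1.1 ST arrays. Per the study's methods the authors used robust multi-array averaging, corrected for the GC content and sequence of probes, normalized by quantiles and summarised each gene by median polish. The deposited values are log2 intensities, relative within an array. Rows were named by RefSeq transcript accession without version (GRCm38.p6), which matched 19915 of 24625 rows (80.9%). SP was set against PBS by two-sided limma (version 3.58.1, R 4.3.3) with no covariate, p-values being adjusted by Benjamini-Hochberg across the 24625 rows. The threshold was an adjusted p of 0.05, and separately a 2-fold difference besides. This step was also run on simulated arrays with few changed rows, the same spread in both groups and no array effects. That setting differs from these data, so no assurance is drawn from it. Related pairs were compared by an exact permutation test over 70 arrangements. Listed genes without a matched row were Gbp5, Il12b, Isg15, Mx1, Xaf1, Irak2, Trac, Fabp4, Ly6g, Foxj1 and Scgb3a2. Named genes were all 8 factors, the 2 largest changes of each pathway list, Stat2, Spi1, Batf2, Tbk1, Ikbke and Irf2bp2 by role, the 2 brightest markers of the B cell list and of the monocyte and macrophage list (other marker lists are given by counts and levels), and the 3 nearest profiles of each factor. Ciita, Il15, Ifnb1, Mrc1, Retnla, Batf3, Fcer2a and Fcgr1 were named after their values were seen. The factors and lists were chosen with earlier results of these data known. Alternatives were the methods' t-test, a robust prior with trend, a replicate block, array weights, centred arrays, another quantile normalization, dim rows left out, 1 row per symbol, each array left out, and limma treat. Figures used Python 3.11.15. One further gene, chosen by role, is counted in its list but its result is not reported here. The microRNA arrays were not analysed here.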

Additional observations from a re-analysis of the deposited data

Results flagged for a closer look

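Of 16 groups of 4 arrays (8 factors, PBS and SP), 1 held an array far from the others by Dixon's ratio. It was Irf5 in PBS, where replicate 2 read 8.09 and the next lowest array 8.88, a gap of 0.84 of the group's range. About 1 in 20 groups would be so marked by chance.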

How the results depend on the processing

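Of 143 member results recomputed under the alternatives, 131 kept direction and side of the threshold and 0 reversed. Several alternatives leave the difference itself unchanged, so that only its p value could move. These are the t-test, robust prior, replicate block, dim rows left out, 1 row per symbol and limma treat. Limma treat, which asks for more than 1 log2 unit, left 2 members called higher (Irf5 and Irf7), both over 2-fold, and 0 lower at either threshold; Irf1 (1.71, adjusted p = 0.0556), Irf2 (0.77), Irf4 (-1.20), Irf8 (1.25) and Irf9 (1.33) were not called. The methods' t-test lost Irf8 (1.25, 0.0533), whose difference was 1.06 to 1.59 without any 1 array. Irf3 gained a call with centred arrays (0.41) and after another quantile normalization (0.29). Members at least 2-fold lower were 0 with centred arrays. With dim rows left out Irf4 was not tested, so 0 were lower at either threshold. The replicate block changed no member's call. Same-numbered PBS and SP arrays did not all deviate together (r over rows 0.02, 0.03, 0.35 and -0.27), so the numbers were not taken as a pairing. In the pairs it allows no p under 0.125, so Irf1 to Irf2 (0.94), Irf3 to Irf7 (-2.26), Irf4 to Irf8 (-2.45) and Irf4 to Irf9 (-2.53) were not called (adjusted p = 0.156). The Irf8 to Irf9 difference changed sign after another quantile normalization (0.29) and ranged from -0.31 to 0.27 without any 1 array (0.11 without PBS replicate 1, 0.16 without PBS replicate 2, 0.27 without SP replicate 3). Of 360 list counts recomputed, 31 moved beyond 1.5 times, 4 of them in pathway lists. The causes were not tested. With 4 arrays a group, and Irf4 near background, small differences are not resolved.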
